A study of Mus musculus with 24 samples.

Results

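Expression of 10 genes of the BMP and TGF-beta family was measured in 24 mammary tumors. The genes are Bmp2, Bmp4, Bmp6, Bmp7 and Bmp10, which encode bone morphogenetic proteins (BMPs), Tgfb1, Tgfb2 and Tgfb3, which encode the TGF-beta isoforms, Inhba, which encodes the beta A subunit of activin and inhibin, and Grem1, which encodes a secreted BMP antagonist. All probes that carried one of these gene names and were not control spots were taken, whatever their values, which gave 12 of the 39429 probes on the array. Of the 10 genes, 9 had a probe that passed the signal filter and were among the 20889 genes tested.

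Ligands of this family are secreted as dimers and bind pairs of type I and type II receptor kinases, which phosphorylate Smad proteins that enter the nucleus and regulate transcription. BMPs signal mainly through Smad1, Smad5 and Smad8, whereas TGF-beta and activin signal mainly through Smad2 and Smad3. In the mammary gland, BMP4 and TGF-beta are known regulators of ductal growth, and TGF-beta restrains epithelial proliferation.

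The tumors arose in female BALB/c mice given DMBA, a chemical carcinogen, by mouth, so every group carried the same carcinogen exposure and no group was carcinogen-free. The diets were a high-fat diet rich in saturated animal fat (HFD), a low-fat diet (LFD), HFD around puberty followed by LFD in adulthood (HFD-LFD) and the reverse order (LFD-HFD). Each tumor was labelled early or late by the time at which it arose, and the groups held 3 early HFD, 3 early HFD-LFD, 5 late LFD, 6 late HFD, 4 late LFD-HFD and 3 late HFD-LFD tumors. No early tumor came from the LFD or LFD-HFD diets, the age of the mice at each tumor was not in the labels, and the labels did not say whether all tumors came from separate mice, so the p-values measure the spread between these samples.

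Each tumor was hybridised on its own array against a common reference RNA pooled from mouse cell lines. All values are log2 ratios of tumor to reference, so 0 is the level of the reference RNA and a difference of 1 is a doubling. The sample labels place the tumor in Cy5, whereas the methods of the study place the reference there, and the signs here follow the labels and the signals: the channel of a shared reference should vary less, and the median SD over 24 arrays was 0.47 log2 in Cy5 and 0.19 in Cy3. The arrays lay on 7 slides scanned in 3 sessions, with 3 early HFD and 8 late tumors in session 1, 3 early HFD-LFD and 3 late tumors in session 2, and 7 late tumors in session 3. The tumor channel was well above background for 66.1% to 89.2% of the probes of an array, and the precision is limited by the number of arrays. Rows with dimmed Cy5 signal on slides 6 and 7 were set missing, which removed Grem1 on the 3 arrays of slide 7. The tumors are whole tissue, in which fewer cells of a type and less RNA per cell cannot be told apart.

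The probes that carry the results are shown with their mm9 positions, and all probes are written from the 5′ end. Whether a position is exonic, coding or untranslated was not assigned, since no mm9 annotation was used here. The Bmp7 probe lies at chr2:172695203-172695262 on the minus strand, and the Tgfb2 probes at chr1:188449333-188449392 and chr1:188447534-188447593 on the minus strand. The first 30 bases of the Bmp7 probe and of the second Tgfb2 probe are given, because these probes carried the differences between early and late tumors:

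Bmp7: gctggcgtctgtgttgaagggaaaccaagc

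Tgfb2, second probe: tcatccattatttccctgatttcattgaaa

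The first Tgfb2 probe is shown whole beside the Tgfb1 probe, at chr7:26489877-26489936 on the plus strand, because both match a stretch that the isoforms share. Capitals mark the 28 identical bases of the 41 aligned bases, an identity of 68.3%:

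Tgfb1: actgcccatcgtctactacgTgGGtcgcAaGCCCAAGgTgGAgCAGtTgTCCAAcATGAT

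Tgfb2: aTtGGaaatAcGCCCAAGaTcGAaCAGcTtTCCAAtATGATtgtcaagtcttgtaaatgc

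The pair of Bmp4 probes is shown because only the first gave a signal. The first lies at chr14:47003391-47003450 and the second at chr14:47003198-47003257, both on the minus strand. In the second, 85% of the 60 bases are A or T, and it was well above background on 0 arrays:

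Bmp4, first probe: caaccacctacacataccacacaaactgct

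Bmp4, second probe: gacaaatatatttataactacatattaaaa

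**Figure D1:**
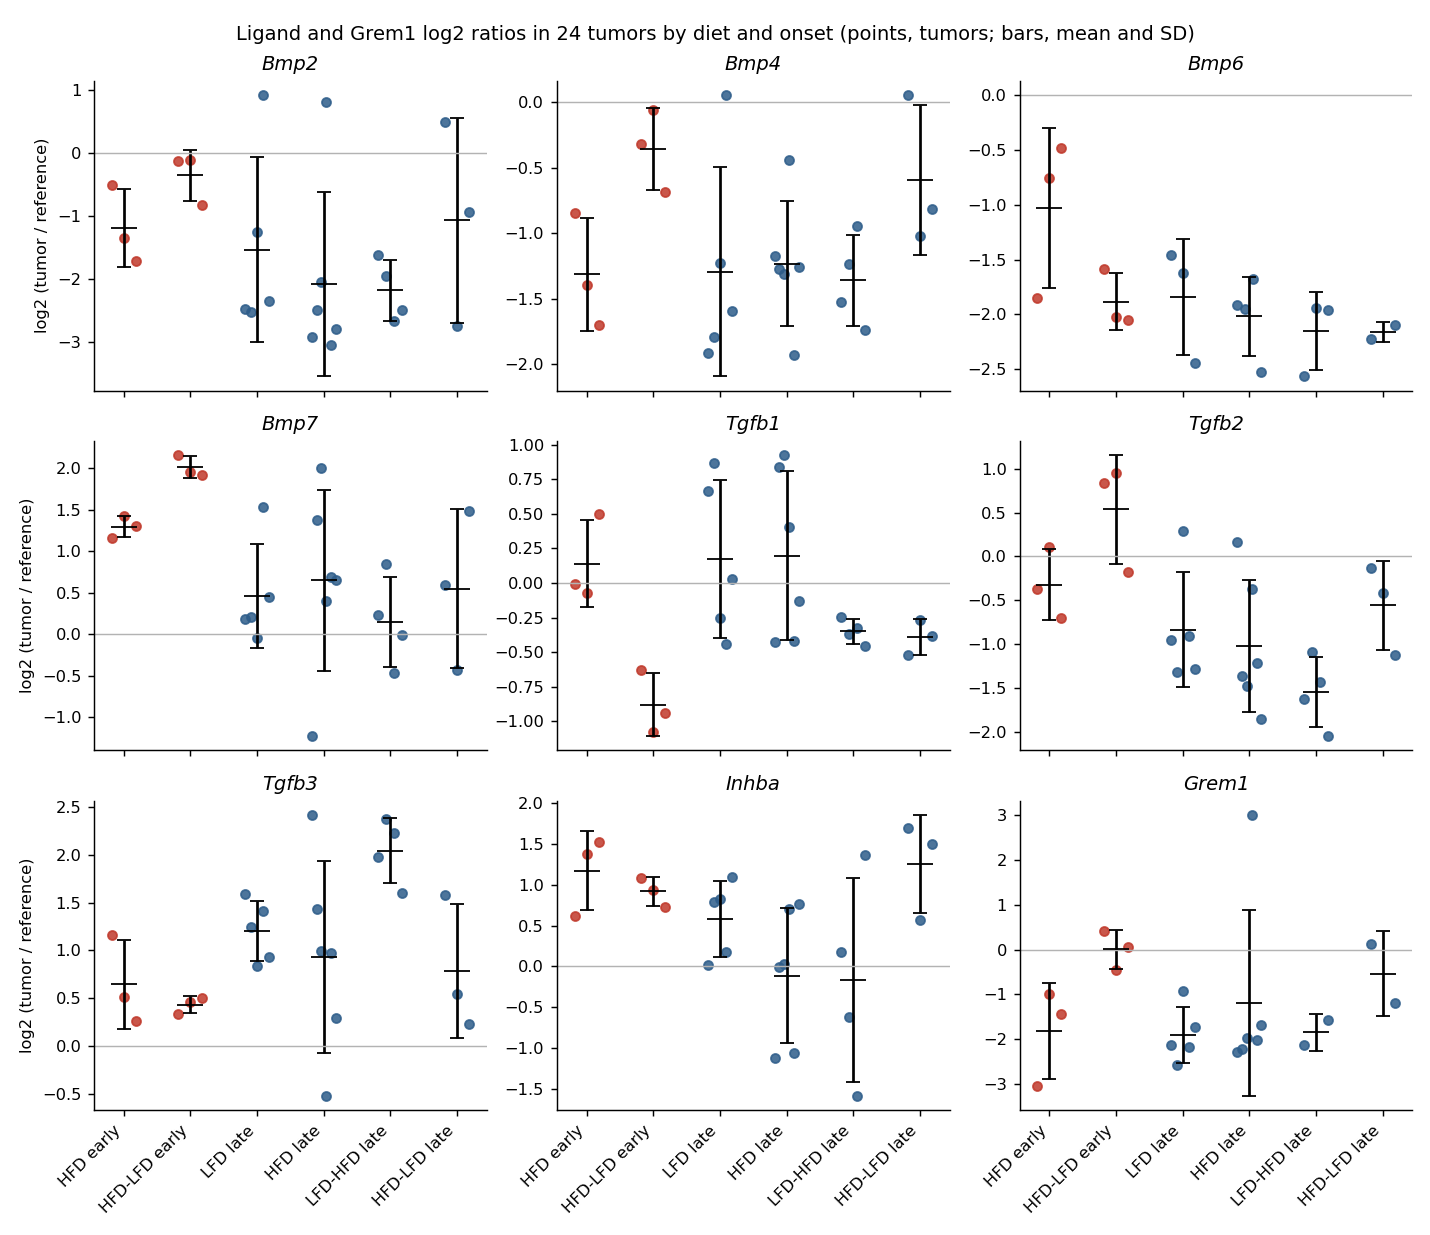
Log2 ratios of tumor to reference (vertical axes) for the 9 genes that passed the filter, in the 6 groups of diet and onset (horizontal axis); points are tumors, red for early and blue for late, and bars are the mean and SD. Early Bmp7 ratios lie between 1.16 and 2.16, above 14 of the 18 late tumors, and the late HFD tumor with a Grem1 ratio of 3.01 lies far from the rest.

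Early and late tumors were compared first, since tumors of short latency were a main interest of the study. Bmp7 and Tgfb2 were higher in early tumors. They were the 2 of the 9 genes that passed the test (limma, Benjamini-Hochberg adjusted p under 0.05 over all genes), where 16.5% of the 20887 genes tested passed in either direction and 6.43% passed as higher. The other 7 genes did not pass. The ranges of early and late tumors overlapped for all 9 genes, whereas 0.9% of all genes had ranges that did not overlap.

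Bmp7 encodes a BMP that in development is best known for its role in kidney and eye formation. Its ratio was 1.16, 1.42 and 1.31 in the early HFD tumors and 2.16, 1.96 and 1.92 in the early HFD-LFD tumors. In the 18 late tumors it ran from -1.23 over a median of 0.43 to 2.00. Every one of the 6 early tumors exceeded the late median and 4 of 18 late tumors reached the lowest early value, namely 2 late HFD tumors, 1 late LFD tumor and 1 late HFD-LFD tumor. The mean was 1.66 ± 0.41 (SD, n = 6) among early tumors and 0.47 ± 0.80 (SD, n = 18) among late ones. The difference was 1.19 log2 with a standard error of 0.33, a 95% interval of 0.51 to 1.86 and an adjusted p of 0.017 in the limma fit, or 2.28-fold.

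Tgfb2 encodes the TGF-beta isoform whose processed form depends most on the co-receptor betaglycan for binding. Its ratio was -0.37, 0.10 and -0.70 in the early HFD tumors and 0.84, 0.95 and -0.17 in the early HFD-LFD tumors. In the late tumors it ran from -2.05 over a median of -1.17 to 0.29. All 6 early values exceeded the late median, while 5 of 18 late tumors were above the lowest early tumor and none was above the highest. The mean was 0.11 ± 0.67 (SD, n = 6) among early tumors and -1.01 ± 0.67 (SD, n = 18) among late ones, a difference of 1.12 with a standard error of 0.30, a 95% interval of 0.50 to 1.74 and an adjusted p of 0.0143 (limma), or 2.17-fold.

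The second Tgfb2 probe gave much the same difference. Its mean was 0.33 ± 0.59 (SD, n = 4) among early tumors and -0.72 ± 0.53 (SD, n = 16) among late ones, with 4 arrays missing. The early values came from 3 HFD tumors and 1 HFD-LFD tumor, so the early set differs from that of the first probe. In the fit of each probe by itself the difference was 1.05 with a standard error of 0.29 and an adjusted p of 0.0182 (limma). Across the 20 arrays that measured both, the probes had a Pearson r of 0.877 and a Spearman rho of 0.893, and they read the same RNA samples.

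**Figure D2:**
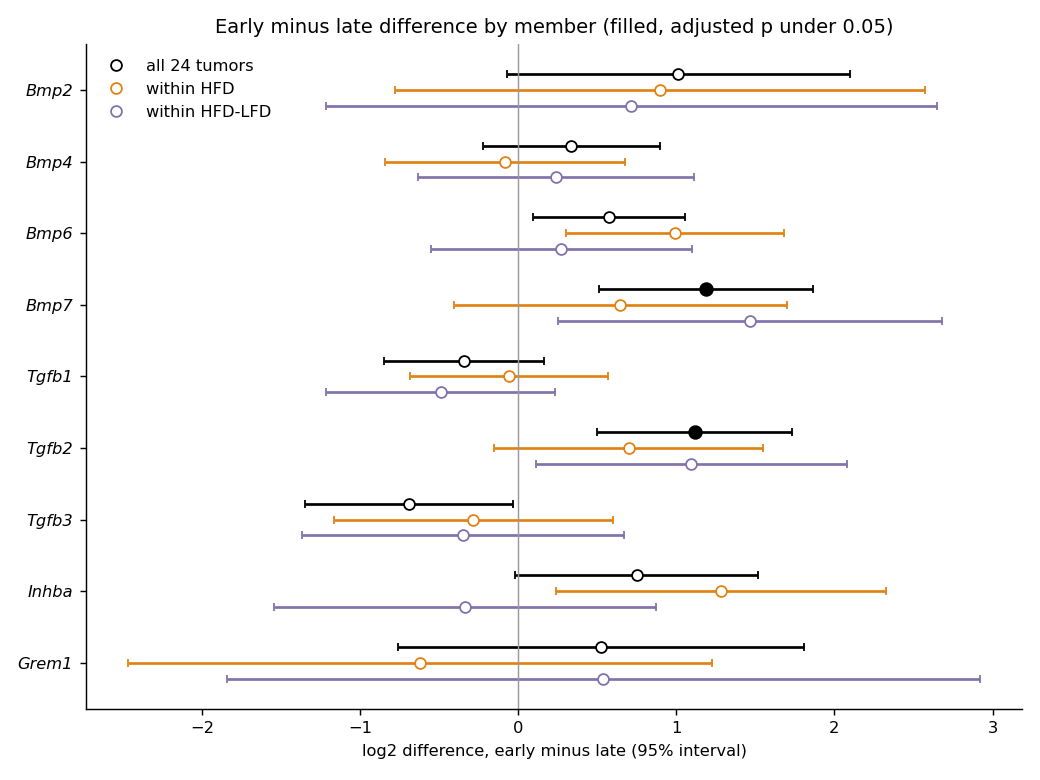
Early minus late difference in log2 ratio (horizontal axis) with its 95% interval for each of the 9 genes, over all 24 tumors, within HFD and within HFD-LFD; filled points had an adjusted p under 0.05. Filled points occur for Bmp7 and Tgfb2 over all tumors, at 1.19 and 1.12, and for no gene within a diet.

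The scan sessions were examined because the early tumors of each diet lay in one session. The late tumors beside them were 4 LFD and 4 HFD tumors in session 1 and 2 HFD-LFD tumors and 1 LFD-HFD tumor in session 2, so diet differed within the sessions too. In session 1, Bmp7 was 1.30 ± 0.13 (SD, n = 3) in early HFD tumors and 0.42 ± 0.96 (SD, n = 8) in late ones, and the difference of 0.88 did not pass (adjusted p = 0.292, limma). In session 2 it was 2.02 ± 0.13 (SD, n = 3) in early HFD-LFD tumors and -0.10 ± 0.60 (SD, n = 3) in late ones, and the difference of 2.12 passed (adjusted p = 0.0123, limma). The 7 late tumors of session 3 averaged 0.78 ± 0.58 (SD). With session as a fixed block, the Bmp7 difference was 1.38 (adjusted p = 0.00927, limma), and with slide as a random block it was 1.42 (adjusted p = 0.045, limma). Slide 2 held only the 3 early HFD tumors, and slide 4 held the 3 early HFD-LFD tumors beside 1 late LFD-HFD tumor. No other slide held an early tumor, so for Bmp7 and Tgfb2 alike the slide block could hardly separate onset from slide.

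For Tgfb2 the differences within sessions were 0.47 in session 1 (adjusted p = 0.481, limma) and 1.20 in session 2 (adjusted p = 0.128, limma). The late tumors of session 3, which had no early tumors beside them, averaged -1.41 ± 0.43 (SD, n = 7), below the late tumors of session 1 at -0.79 ± 0.72 (SD, n = 8) and of session 2 at -0.66 ± 0.68 (SD, n = 3). Those of session 3 read -1.62, -1.09 and -2.05 in LFD-HFD, -1.22 and -1.85 in HFD, -0.91 in LFD and -1.12 in HFD-LFD tumors. LFD-HFD also had the lowest late Tgfb2 mean of the diets, -1.55, so diet and session cannot be fully told apart here. With session as a fixed block the Tgfb2 difference was 0.77 and did not pass (adjusted p = 0.0648, limma), and without slides 6 and 7 it was 0.86 (adjusted p = 0.0706, limma). With slide as a random block it was 1.23 (adjusted p = 0.0448, limma). The Tgfb2 call therefore rested in part on the late tumors of session 3, whereas the Bmp7 call held with the session block and without those slides, at 1.38 in the latter (adjusted p = 0.0142, limma).

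**Figure D3:**
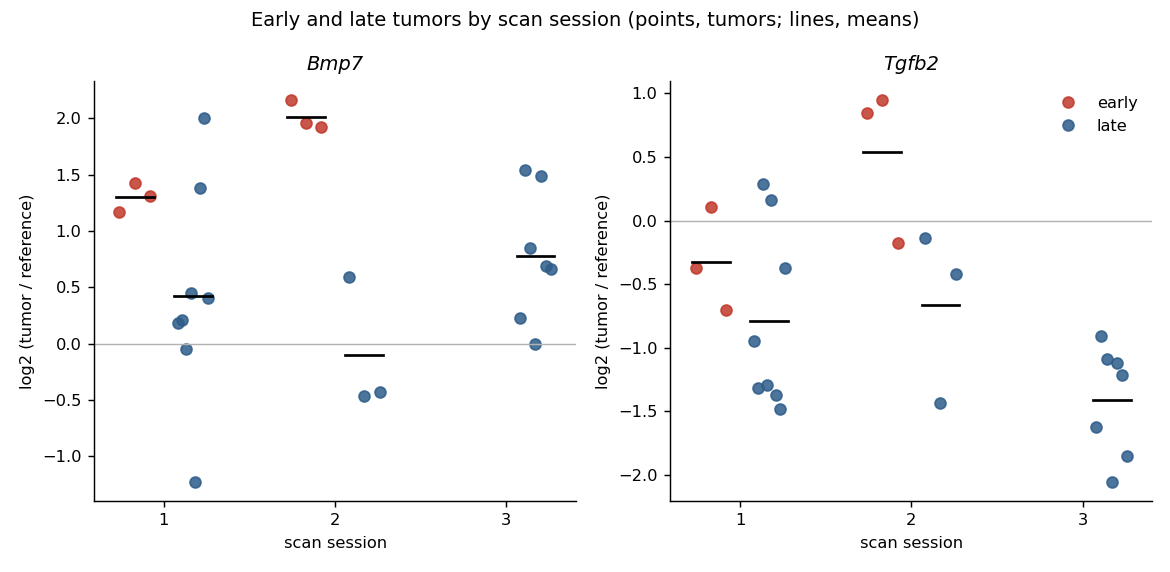
Log2 ratios of Bmp7 (left) and Tgfb2 (right) by scan session (horizontal axis), with early tumors in red and late tumors in blue; points are tumors and lines are means. Early means are above late means in sessions 1 and 2 for both genes, by 0.88 and 2.12 for Bmp7 and by 0.47 and 1.20 for Tgfb2, and session 3 holds no early tumor.

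Bmp2, Bmp4 and Bmp6 had higher mean ratios in early tumors and did not pass the test, and Bmp10 was not among the genes tested. Bmp2, whose product is a strong inducer of bone and cartilage, was -0.51, -1.35 and -1.71 in early HFD tumors and -0.13, -0.12 and -0.82 in early HFD-LFD tumors. In late tumors Bmp2 ran from -3.06 over a median of -2.41 to 0.91. The 6 early ratios all exceeded the late median and 12 of 18 late tumors were below every early tumor, but 3 late tumors, with ratios of 0.91, 0.81 and 0.48, were above every early tumor. The late SD was 1.29, and the difference of 1.01 with a standard error of 0.53 did not pass (adjusted p = 0.179, limma; 95% interval -0.07 to 2.10).

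Bmp4, which acts in mesoderm formation and in mammary and bone development, differed by 0.34 between early and late tumors, with a standard error of 0.27 and an adjusted p of 0.40 (limma). Its early tumors ran from -1.70 to -0.06 and its late tumors from -1.93 to 0.05. Both ranges covered nearly the same span, and only 4 of 18 late tumors were below the lowest early tumor.

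Bmp6, whose product is the main BMP inducer of hepcidin in iron balance, was measured in 6 early and 12 late tumors, because outlier flags removed 6 late values. The early HFD tumors read -1.85, -0.75 and -0.48 and the early HFD-LFD tumors -1.59, -2.02 and -2.05, while late tumors ran from -2.57 over a median of -1.96 to -1.46. The highest Bmp6 ratios were thus those of 2 early HFD tumors, and the early HFD-LFD tumors lay inside the late range. The difference was 0.57 with a standard error of 0.23 and an adjusted p of 0.0912 (limma). In the tumor channel alone it was 1.11 and passed (adjusted p = 0.0154, limma).

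Bmp10, whose product is known mainly from the heart, did not pass the filter. Its background-subtracted signal was over 10 on 23 arrays in the tumor channel but on 18 in the reference channel, so its ratio has a weak denominator. It was well above background in the tumor channel in 4 of 6 early and 14 of 18 late tumors. The ratio was 0.12 ± 0.26 (SD, n = 6) among early tumors and 0.19 ± 0.23 (SD, n = 18) among late ones, which differed by less than the spread between tumors. Without the filter the difference was -0.07 (adjusted p = 0.731, limma), and in the tumor channel alone it was -0.23 (adjusted p = 0.438, limma).

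Tgfb1 and Tgfb3 had lower mean ratios in early tumors and neither passed. Tgfb1, the isoform best known for its part in immune regulation and fibrosis, was -0.01, -0.08 and 0.50 in early HFD tumors and -0.63, -1.08 and -0.94 in early HFD-LFD tumors. In late tumors it ran from -0.52 over a median of -0.26 to 0.93. The early HFD tumors lay within the late range and the early HFD-LFD tumors below it. The difference was -0.34 with a standard error of 0.24 (adjusted p = 0.339, limma), and it turned to 0.05 under median centring of the arrays. The late Tgfb1 ratios averaged 0.38 ± 0.53 (SD, n = 8) in session 1, -0.37 ± 0.14 (SD, n = 3) in session 2 and -0.35 ± 0.12 (SD, n = 7) in session 3, and the part of the session in these levels was not tested.

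Tgfb3, an isoform required for palate closure, was 1.17, 0.51 and 0.26 in early HFD tumors and 0.34, 0.46 and 0.50 in early HFD-LFD tumors. In late tumors it ran from -0.53 over a median of 1.33 to 2.42. None of the 6 early tumors was above the late median, a pattern found in 17.5% of all genes, and 10 of 18 late tumors were above every early tumor. The difference of -0.69 with a standard error of 0.32 did not pass (adjusted p = 0.134, limma; 95% interval -1.35 to -0.03). Without the late HFD tumor at -0.53 it was -0.79 and passed (adjusted p = 0.0477, limma). Tgfb1 and Tgfb3 each had 10 spots per array, and the SD between spots of one array had a median of 0.07 log2 for both, against an SD between tumors of 0.55 for Tgfb1 and 0.76 for Tgfb3.

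Inhba, whose product forms activin A as a dimer, was 0.62, 1.38 and 1.52 in early HFD tumors and 1.09, 0.93 and 0.73 in early HFD-LFD tumors. In late tumors it ran from -1.59 over a median of 0.37 to 1.69. The late median was exceeded in all 6 early tumors. This was also true of Bmp2, Bmp7 and Tgfb2, so 4 of 9 genes showed it, against 10.7% of all genes. The Inhba difference was 0.75 with a standard error of 0.37 and did not pass (adjusted p = 0.163, limma).

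Grem1, whose product gremlin binds and blocks BMP2, BMP4 and BMP7, had the widest range of the 9 genes, from -3.04 in an early HFD tumor to 3.01 in a late HFD tumor. It was -3.04, -1.0 and -1.43 in early HFD tumors and 0.41, -0.45 and 0.05 in early HFD-LFD tumors. In the 15 late tumors measured the median was -1.98. The difference was 0.52 with a standard error of 0.62 (adjusted p = 0.582, limma), and 0.84 (adjusted p = 0.149, limma) without the late HFD tumor at 3.01.

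The early tumors of the 2 diets were set side by side because their values fell apart for several of these genes. Ranges did not overlap for 4 of the 9 genes. Bmp4, Bmp7 and Grem1 were higher in early HFD-LFD tumors, with means of -0.36, 2.02 and 0.00 against -1.31, 1.30 and -1.82 in early HFD tumors. Tgfb1 was lower, at -0.88 against 0.14. Of all genes measured on those 6 arrays, 46.8% had ranges that did not overlap, so the share among these 9 genes is near the background. Each of these groups lay on 1 slide in 1 session, so diet and slide cannot be told apart here.

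Within each diet, early and late tumors were compared as contrasts of group means in 1 fit over all 24 arrays. In both diets the early tumors lay on other slides than the late ones, so onset and slide cannot be told apart there. Within HFD, 12.1% of 20875 genes passed and none of the 9 genes did. Bmp6 and Inhba came nearest, Bmp6 at -1.03 ± 0.73 (SD, n = 3) among early and -2.02 ± 0.36 (SD, n = 4) among late HFD tumors, a difference of 0.99 with a standard error of 0.32 (adjusted p = 0.0587, limma). Inhba averaged 1.17 ± 0.48 (SD, n = 3) among early and -0.11 ± 0.82 (SD, n = 6) among late HFD tumors, a difference of 1.28 with a standard error of 0.50 (adjusted p = 0.094, limma). The Bmp7 and Tgfb2 differences were 0.65 and 0.70 (adjusted p = 0.418 and 0.266, limma).

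Within HFD-LFD, 0.728% of 20753 genes passed and again none of the 9 did. Bmp7 averaged 2.02 ± 0.13 (SD, n = 3) among early tumors and 0.55 ± 0.96 (SD, n = 3) among late ones, a difference of 1.47 with a standard error of 0.58 (adjusted p = 0.244, limma). Tgfb2 averaged 0.54 ± 0.62 (SD, n = 3) and -0.56 ± 0.51 (SD, n = 3), a difference of 1.1 with a standard error of 0.47 (adjusted p = 0.28, limma). Inhba had a mean of 1.25 ± 0.60 (SD, n = 3) in late HFD-LFD tumors, above the 0.92 ± 0.18 (SD, n = 3) of the early ones by less than the spread.

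Whether the onset change differed between the diets was tested directly. Of 20743 genes, 0.00964% passed, namely Neto1 and Hoxd3os1, and none of the 9 genes. The Inhba change was lower in HFD-LFD than in HFD by 1.62 with a standard error of 0.77, an unadjusted p of 0.0467 and an adjusted p of 0.624 (limma). For Bmp7 the changes differed by 0.82 with a 95% interval of -0.79 to 2.43, and for Tgfb2 by 0.40 with an interval of -0.90 to 1.70, so both intervals hold 0 and a gap of 1 log2 alike.

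Diet was compared in 9 HFD and 5 LFD tumors, of which the 3 early ones were all HFD. No gene passed (0% of 20888 genes, with 4.63% at an unadjusted p under 0.05, limma), and the adjusted p of the 9 genes was at least 0.961. The differences ran from -0.37 for Tgfb3 to 0.49 for Grem1. The intervals were wide: for Bmp7 the difference was 0.40 with a 95% interval of -0.52 to 1.33.

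Among late tumors the 4 diets were compared by limma's F test, in which 1.65% of 20790 genes passed and none of the 9 did. Tgfb3 had the smallest p of the 9. It was 1.97, 2.37, 2.23 and 1.60 in the late LFD-HFD tumors, with a mean of 2.04 ± 0.34 (SD, n = 4), against 1.20 ± 0.32 (SD, n = 5) in LFD, 0.93 ± 1.0 (SD, n = 6) in HFD and 0.78 ± 0.70 (SD, n = 3) in HFD-LFD tumors. The F test gave an unadjusted p of 0.0333 and an adjusted p of 0.217 (limma). The lowest LFD-HFD tumor, at 1.598, was level with the highest LFD tumor, at 1.591, and 1 HFD tumor reached 2.42. Of the 5 LFD tumors 4 lay on slide 1, whereas the LFD-HFD tumors lay on slides 4, 6 and 7. Diet and slide thus cannot be fully told apart among the late tumors.

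Inhba came next, and its order was different. Its late means were 1.25 in HFD-LFD, 0.58 in LFD, -0.11 in HFD and -0.17 in LFD-HFD tumors, with an adjusted p of 0.232 (limma), and the SD of 1.25 in LFD-HFD tumors spanned most of these differences. Late Tgfb2 means ran from -1.55 ± 0.40 (SD, n = 4) in LFD-HFD to -0.56 ± 0.51 (SD, n = 3) in HFD-LFD tumors (adjusted p = 0.419, limma). Late Bmp7 means ran only from 0.15 in LFD-HFD to 0.65 in HFD tumors, less than the SD of 1.09 within the HFD group.

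The rest of the pathway was described by 7 lists of other ligands, receptors, Smads, secreted antagonists, latency proteins and proteases, BMP targets and TGF-beta targets. Of the 89 genes tested in them, 5 were higher and 12 lower in early tumors, or 19.1% called, near the 16.5% of all genes. The median difference over all genes was -0.05.

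Among 18 other ligands 1 was called higher and 3 lower, with a list median of -0.19. Inha, which encodes the alpha subunit specific to inhibin, averaged -0.68 ± 0.26 (SD, n = 6) among early tumors and -1.24 ± 0.38 (SD, n = 17) among late ones (difference 0.56, adjusted p = 0.0228, limma). Bmp3, whose product opposes other BMPs in bone, differed by -1.11 (adjusted p = 0.0173, limma). Gdf9, an oocyte factor, and Inhbe, an activin subunit of liver, were lower too, at -0.48 and -0.50. Neither passed under median centring, in the log ratio of the scanner software or in the tumor channel alone.

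Among 13 receptors none was called higher and 3 lower, with a list median of -0.27. Acvrl1 encodes ALK1, a receptor for BMP9 and BMP10 on endothelium. It averaged -1.80 ± 0.24 (SD, n = 6) among early tumors and -0.89 ± 0.40 (SD, n = 18) among late ones, a difference of -0.91 (adjusted p = 0.00162, limma). Amhr2, the receptor of anti-Mullerian hormone, differed by -2.38 (adjusted p = 0.00359, limma). Tgfbr3, which encodes betaglycan, differed by -0.94 (adjusted p = 0.0408, limma). Esam, an endothelial marker, was the 1 of 8 endothelial genes called, also lower, and its part in the Acvrl1 difference was not tested.

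Among 8 Smad genes 1 was called higher and none lower, with a list median of 0.30. That gene was Smad6, which encodes an inhibitory Smad of the BMP branch and differed by 0.66 (adjusted p = 0.0457, limma). Among 12 secreted antagonists none was called higher and 3 lower, with a list median of -0.28. Decorin, encoded by Dcn, is a matrix proteoglycan that binds TGF-beta, and it averaged -2.62 ± 0.31 (SD, n = 5) among early tumors and -0.17 ± 1.36 (SD, n = 14) among late ones (adjusted p = 0.00925, limma). Chrd, which encodes the BMP antagonist chordin, differed by -0.39 (adjusted p = 0.00974, limma), and Bmper, whose product modulates BMP4, by -1.18 (adjusted p = 0.0398, limma).

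Among 14 genes for latency proteins, activators and proteases 1 was called higher and 1 lower, with a list median of -0.19. Pcsk6 encodes PACE4, a proprotein convertase that can cleave precursors of this family. It averaged 1.35 ± 0.37 (SD, n = 6) among early tumors and -0.59 ± 0.97 (SD, n = 18) among late ones, a difference of 1.94 with a standard error of 0.39 (adjusted p = 0.00266, limma). Pcsk7, another convertase, differed by -0.45 (adjusted p = 0.00536, limma) but by -0.05 under median centring.

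Among 9 BMP targets 1 was called higher and none lower, with a list median of 0.08. The called gene was Id4, an inhibitor of basic helix-loop-helix factors, which averaged 4.12 ± 0.62 (SD, n = 5) among early tumors and 1.20 ± 1.18 (SD, n = 14) among late ones (difference 2.93 with a standard error of 0.52, adjusted p = 0.00169, limma). Among 15 TGF-beta targets 1 was called higher and 2 lower, with a list median of -0.04. Cdkn2b, which encodes the cell cycle inhibitor p15, differed by 0.89 (adjusted p = 0.0282, limma), Postn, which encodes the matrix protein periostin, by -1.89 (adjusted p = 0.00867, limma), and Pmepa1, a feedback inhibitor of TGF-beta signaling, by -0.69 (adjusted p = 0.0493, limma). The mean ratio over the TGF-beta targets ran from -0.56 over a median of -0.41 to 0.05 in early tumors and from -1.06 over a median of -0.01 to 0.40 in late tumors. The 3 early HFD-LFD tumors, at -0.56 to -0.39, lay below the 3 late HFD-LFD tumors, at 0.00 to 0.39, while the HFD groups overlapped. These list means, each over the genes measured on that array, were not tested.

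**Figure D4:**
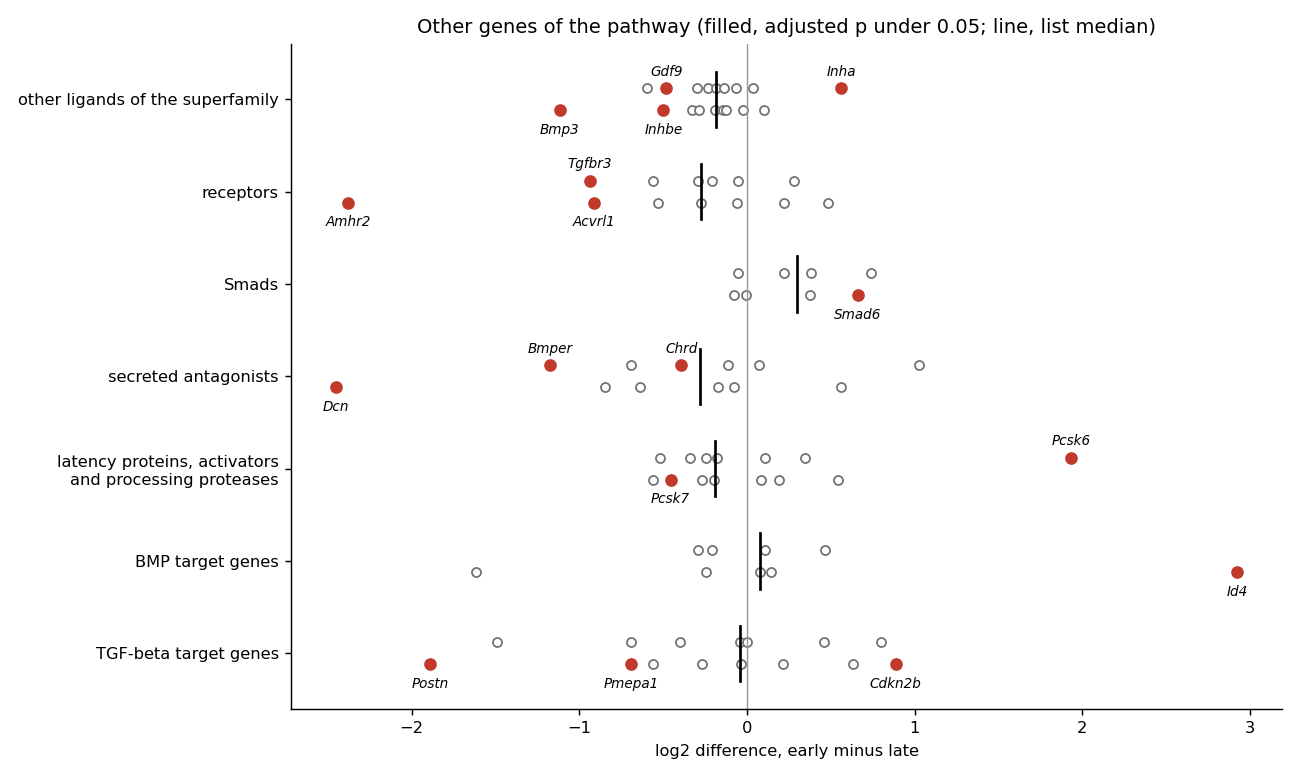
Early minus late difference in log2 ratio (horizontal axis) for the 89 tested genes of 7 pathway lists; each point is a gene, filled and named where the adjusted p was under 0.05, and vertical lines are list medians. The 17 filled points include 5 to the right of 0, led by Id4 at 2.93 and Pcsk6 at 1.94, and 12 to the left.

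Several directions and counts depend on how the dyes are scaled. Under median centring of each array in place of loess, the median difference over all genes moved from -0.05 to 0.21, and 82.3% of the genes called had higher ratios in early tumors, instead of 38.9%. In the tumor channel alone the share was 61.7%. Under both of these scalings and the log ratio of the scanner software, Bmp7 and Tgfb2 remained higher and called, and the 17 called pathway genes kept their sign. Of these, Inha, Acvrl1, Amhr2, Dcn, Pcsk6, Id4, Cdkn2b and Postn also passed under all of these scalings, whereas Gdf9, Inhbe, Bmper and Pmepa1 passed under none. Under median centring the list medians of receptors, of proteases and latency proteins and of TGF-beta targets turned positive, at 0.12, 0.18 and 0.27, against the 0.21 of all genes. Among receptors 3 were then called higher (Acvr1b, Acvr2b and Bmpr2) and 2 lower (Acvrl1 and Amhr2), and among Smads 4 were called higher (Smad1, Smad4, Smad6 and Smad7). In the tumor channel alone no Smad was called, and the 3 receptors called lower were Acvrl1, Amhr2 and Tgfbr3. The median of TGF-beta targets was also above 0 in the scanner's log ratio, at 0.02.

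Markers of cell types and proliferation were counted in the same way. Each list mean was taken over the genes measured on that array, and values set missing left fewer on some. The late LFD-HFD tumor MSU_24 had 8 of the 12 squamous genes, and the late LFD tumor MSU_105 had 12. List means of different tumors are thus not always over the same genes. Among 9 luminal markers none was called higher and 4 lower in early tumors, namely Esr1, Foxa1, Gata3 and Prlr, and the mean of the list ran from -0.11 to 2.42 in early and from -1.50 to 3.90 in late tumors. Among 9 proliferation genes 5 were called higher, namely Top2a, Ccnb1, Cdk1, Bub1 and Pcna, with a list mean of 0.13 to 0.93 in early and -1.24 to 1.09 in late tumors. Among 12 squamous genes 1 was called, Sprr3, which was lower, although 11 of 12 had higher means in early tumors. Under median centring 4 were called higher (Ivl, Krt6a, Lor and Sprr1a) and none lower, and in the tumor channel alone 1 was called higher (Lor) and none lower. Their list mean ran from -3.33 to -0.15 in early and from -4.50 to 2.68 in late tumors. None of the markers of fibroblasts (8 tested), T cells (7), B cells (4), adipocytes (6), skeletal muscle (8) or milk proteins (7) was called, while Lyz2 of 9 macrophage markers was higher and Myh11 of 7 basal markers was lower. The part of luminal content and proliferation in the Bmp7 and Tgfb2 differences was not tested.

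Over the late tumors alone, the onset label is held the same and the genes can be set against these marker lists. Diet, scan session and the time of onset within that label still vary. Of 45 such relations, 6 passed by Pearson's r and none by Spearman's rho after adjustment over the 45. For Bmp7 the r with proliferation was 0.554 and the rho 0.585 over 18 late tumors (permutation p = 0.0175 and 0.0125, adjusted p = 0.0913 and 0.141). That r was 0.687 in the 8 late tumors of session 1, 0.448 in the 7 of session 3 and 0.552 without the 2 tumors farthest from the median in proliferation, or 0.409 without the 2 farthest in Bmp7. With luminal markers the r of Bmp7 was -0.221 and the rho -0.406 (permutation p = 0.375 and 0.0956, adjusted p = 0.676 and 0.391), with an r of 0.159 in session 1 and -0.705 in session 3. For Tgfb2 the r with luminal markers was -0.306 and the rho -0.49 (permutation p = 0.218 and 0.041, adjusted p = 0.566 and 0.231), with an r of -0.531 in session 1 and -0.269 in session 3. With proliferation the r of Tgfb2 was -0.059 and the rho 0.156 (permutation p = 0.816 and 0.534, adjusted p = 0.932 and 0.728). That r was 0.555 without the 2 tumors farthest in proliferation, -0.172 in session 1 and 0.101 in session 3.

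Tgfb3 was related to several of the marker lists. Its ratio was lower in tumors with high squamous genes, with an r of -0.713 and a rho of -0.697 over 18 late tumors (permutation p = 0.0009 and 0.00206, adjusted p = 0.0405 and 0.0529). The r was -0.829 in the 8 late tumors of session 1 and -0.685 in the 7 of session 3. Without the 2 tumors farthest from the median in squamous genes it was -0.385, so the relation rested in large part on them. With proliferation the r was -0.62 and the rho -0.686 (permutation p = 0.0063 and 0.00235, adjusted p = 0.0472 and 0.0529). That r was -0.669 in session 1, -0.721 in session 3 and -0.492 without the 2 farthest tumors.

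The other relations that passed by r had weaker ranks. Bmp2 had an r of 0.704 and a rho of 0.498 with squamous genes (permutation p = 0.00316 and 0.0365, adjusted p = 0.0472 and 0.231). That r was 0.966 in session 1, 0.521 in session 3 and 0.594 without the 2 farthest tumors. With luminal markers Bmp2 had an r of -0.649 and a rho of -0.366 (permutation p = 0.00581 and 0.134, adjusted p = 0.0472 and 0.504), with an r of -0.936 in session 1, -0.442 in session 3 and -0.742 without the 2 tumors farthest in luminal markers. Without the 2 farthest in Bmp2 it was -0.258, so the relation rested in large part on them. Tgfb3 had an r of 0.663 and a rho of 0.511 with luminal markers (permutation p = 0.00257 and 0.0316, adjusted p = 0.0472 and 0.231), and the r was 0.734 in session 1, 0.679 in session 3 and 0.321 without the 2 farthest tumors. Grem1 had an r of 0.861 and a rho of 0.468 with squamous genes over 15 tumors (permutation p = 0.00496 and 0.0813, adjusted p = 0.0472 and 0.366). That r was 0.392 without the 2 farthest tumors, and session 3 held too few Grem1 values for its own r.

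Of 36 pairs among the 9 genes, 1 passed over late tumors by r and none by rho. Bmp2 and Bmp4 had an r of 0.822 and a rho of 0.511 over 18 tumors (permutation p = 0.00018 and 0.0316, adjusted p = 0.00648 and 0.391). The r was 0.787 in session 1, 0.925 in session 3 and 0.708 without the 2 tumors farthest in Bmp2. The tumors with the highest ratios of both genes were thus the same few. Bmp7 and Tgfb2 had an r of -0.365 and a rho of -0.216 over the late tumors (permutation p = 0.137 and 0.39, adjusted p = 0.427 and 0.705). The sessions went opposite ways, with an r of -0.742 in session 1 (n = 8) and 0.837 in session 3 (n = 7), and this gap was not tested.

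**Figure D5:**
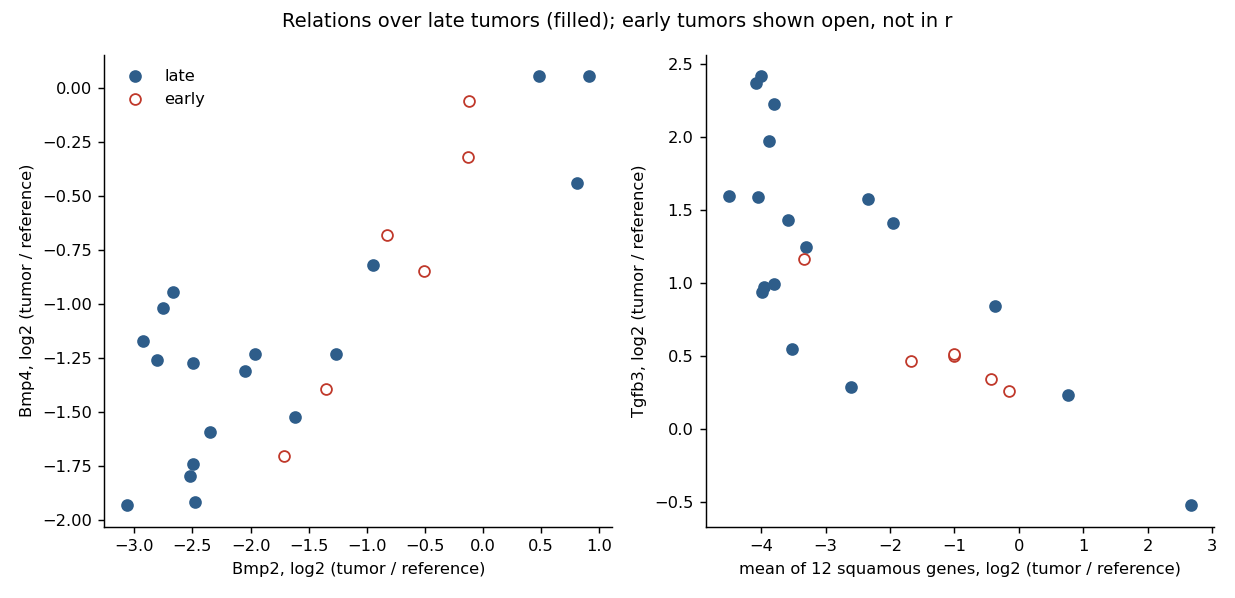
Bmp4 against Bmp2 (left) and Tgfb3 against the mean of those of 12 squamous genes measured on each array (right), all as log2 ratios of tumor to reference. Points are tumors, filled for late and open for early. Over the late tumors the r is 0.822 on the left and -0.713 on the right, and in both panels a few tumors with high Bmp2 or high squamous genes lie apart from the others.

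The genes whose ratios were most like those of Bmp7 and Tgfb2 over the arrays where both were measured are given as a description. For Bmp7 they were Adamts4, which encodes an aggrecan-cleaving protease, with an r of 0.879 over 24 arrays, LOC552901 with 0.867 over 18, and Mycn, the N-Myc oncogene, with 0.865 over 19. For Tgfb2 they were Slc30a2, which encodes a zinc transporter, with an r of 0.825 over 24 arrays, an unnamed probe (A_55_P1962054) with 0.799 over 18, and Poc1b, which encodes a centriole protein, with 0.797 over 20. These correlations include the difference between early and late tumors and all arrays share the reference RNA.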

How the data were processed

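The deposited files hold, as the authors' scanner software (Agilent Feature Extraction 8.5.1.1) wrote them, the intensity of each spot and its local background in both dyes, and a log10 ratio of Cy5 to Cy3 that served as an alternative. Probe positions are on mm9. The labels gave the diet and onset of each tumor. Using limma 3.58.1 (R 4.3.3), normexp with an offset of 50 served as background correction, followed by loess within each array and the mean over spots of a probe. A probe was kept when its signal over local background exceeded 10 in the Cy5 and the Cy3 channel of 80% or more of the arrays (27188 of 39429 probes), and the brightest probe stood for a gene (20889 genes). Outlier spots and dimmed Cy5 rows (up to 22.6% of an array) were set missing (8.83% of values). The dimmed rows were located on background-subtracted signals, a choice made after their profiles had been seen.

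Names came from a RefSeq table by accession for 27234 probes, symbol for 3576 and older symbol for 565; 8054 kept the file's name. Comparisons were limma fits with Benjamini-Hochberg adjustment over all genes (threshold 0.05). Relations used 100000 permutations, two-sided. The genes, lists and tests were chosen with earlier results of these data known. Named were all 10 genes, up to 2 called genes of smallest p in each direction and pathway list, the 3 genes most like each called gene, and any count of 5 or fewer. On simulated data of 20889 genes with 200 changed, the early and late comparison recovered 82% of changes of 1 log2 and 97% of 2. For changes of 1 log2 the recovery was 61% for HFD against LFD, 57% within HFD and 42% within HFD-LFD. The simulated noise was independent between arrays and held no slide, session or diet effect, which the real arrays may carry.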

Additional observations from a re-analysis of the deposited data

Results flagged for a closer look

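The values of 4 tumors and genes lay far from the rest of their group by Dixon's test at the 95% level, among 37 groups of 4 to 6 tumors tested. Chance alone passes about 1 in 20 such groups. The late HFD tumor MSU_86 had the highest Bmp2 ratio of its group, 0.81 against -2.05 in the nearest of the other 5 tumors. The same tumor had a Grem1 ratio of 3.01 against -1.69 in the nearest. Its Grem1 signal was 7431 in the tumor channel and 849 in the reference channel, where the other arrays with a Grem1 value read 11.8 to 515 and 114 to 395. Its mean over the 11 squamous genes measured on its array was 2.68, the highest of the 24 tumors, and its mean over 9 luminal markers was -1.50, the lowest. The late LFD tumor MSU_137 had a Tgfb2 ratio of 0.29 against -0.91 in the nearest of the other 4 LFD tumors. The early HFD tumor MSU_163 had a Tgfb3 ratio of 1.17 against 0.51 in the nearest of the other 5 early tumors.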

How the results depend on the processing

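No paired analysis was possible because the labels carry no replicate numbers and pair no tumors. Of the 9 genes, 2 were called between early and late tumors. That count was 5 under median centring (Bmp2, Bmp6, Bmp7, Inhba and Tgfb2), 5 with array weights (Bmp2, Bmp7, Grem1, Tgfb2 and Tgfb3), 1 with scan session as a block, 1 without slides 6 and 7, 1 within session 2 (Bmp7 in these 3) and 0 within session 1, and 2 to 3 with each array left out. With an array left out, the count of 3 came without MSU_86, where Tgfb3 passed too. Bmp6 was called in 4 of 20 alternatives, among them median centring and the tumor channel alone (1.11, adjusted p = 0.0154, limma). The sessions hold fewer samples. For the other changes the cause was not tested. Within HFD the count of 0 became 1 with imputation, with dimmed rows kept and imputation, with the scanner's log ratio and in the tumor channel (Bmp6 in each), 1 without slides 6 and 7 (Inhba), 2 under median centring, 3 with array weights and 0 to 1 with each array left out (Bmp6 without MSU_163, MSU_28 or MSU_96). With array weights 1 gene was called within HFD-LFD (Bmp7) and 1 among the diets of late tumors (Tgfb1). With each array left out, these counts and those for HFD against LFD and for the difference between diets were 0. Bmp7 was called in 19 of 20 alternatives and Tgfb2 in 16 of 20, and both in 24 of 24 fits that left out an array, Bmp7 at 1.08 to 1.28 and Tgfb2 at 0.95 to 1.28. No difference of a called gene changed sign.

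Counts over all genes moved more. The 3450 genes called between early and late tumors were 2133 with dimmed rows kept, 1533 with slide as a random block, 6290 with array weights, 1315 and 2220 within sessions 1 and 2, 1907 without MSU_768 and 2299 without MSU_97. Within HFD 2527 became 1330 with dimmed rows kept, 1574 with imputation added, 1018 in the tumor channel, 512 with the slide block, 7841 with weights and 867 to 3403 with an array left out. Within HFD-LFD 151 became 55, 54, 88, 23 and 1973 in the same order, 428 with normexp on all spots, 238 for single probes, 549 with the session block, 383 without slides 6 and 7 and 16 to 269 with an array left out. Among late diets 343 became 83, 104, 138, 7 and 3744 in that order, 92 with normexp on all spots, 146 without slides 6 and 7 and 115 to 915 with an array left out. The 2 genes of the difference between diets became 0 to 4, except 299 with weights, and 0 to 19 with an array left out.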
